A study of Mus musculus with 2 samples.

Results

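The genes described are 10 that encode secreted proteins of the acute-phase response: the serum amyloid A genes Saa1, Saa2, Saa3 and Saa4, the orosomucoid genes Orm1 and Orm2, and Lrg1, Hp, Cp and Itih4. They were taken by symbol, as all non-control probes that carry one of these names, which gave 12 probes. Of the 34761 genes or array names on the arrays, these are 10. RNA came from CMT93 cells, an established mouse large-bowel carcinoma line that the labels trace to the rectum of a C57BL/ICRF animal aged 19 months. The labels name 1 array of untreated (control) cells in DMEM and 1 array of cells stimulated with lipopolysaccharide (LPS), the glycolipid of the Gram-negative outer membrane. The treatment text, 3 µg/mL for 24 h, is on both samples and was read as that of the LPS array. With 1 array per group there was no replicate and no test between the groups was possible, so every difference below compares these 2 arrays, and their number sets the precision.

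The acute-phase response is the change in plasma proteins that follows infection or injury. Interleukin 6, interleukin 1 and tumour necrosis factor drive it, through STAT3, C/EBP factors and NF-kB, mostly in hepatocytes. Serum amyloid A proteins are small apolipoproteins that bind high-density lipoprotein and retinol, and in the gut they are also made by epithelial cells that meet bacteria. Saa1 and Saa2 are near-identical genes, Saa3 is the form best known outside the liver in mice, and Saa4 is a constitutive liver form.

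Of the 10 genes, 5 (Saa1, Saa2, Lrg1, Cp and Hp) were well above background on both arrays, 3 (Saa3, Orm1 and Orm2) on the LPS array only, and 2 (Saa4 and Itih4) on neither. Of all 34761 genes, 20380 were so on both arrays, 647 on the LPS array only, and 12732 on neither. All 5 measured genes had a higher signal on the LPS array, with log2 differences from 0.62 for Hp to 5.93 for Saa1 and a median of 3.16. The median over all 20380 measured genes was -0.02, with 44.5% of them above 0. Of the 5, 4 were at least 2-fold higher, where 1.46% of all measured genes were, and 0 were at least 2-fold lower, where 0.569% were. The same 4 genes were also at least 4-fold higher, as were 0.383% of all measured genes, though Saa2 was not with normexp background correction (log2 difference 1.69). The 3 genes seen on the LPS array only had lower bounds above 2-fold, a size that 45.0% of the 647 genes of that kind reached. In bulk RNA, more cells that express a gene and more RNA per cell cannot be told apart.

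**Figure D1:**
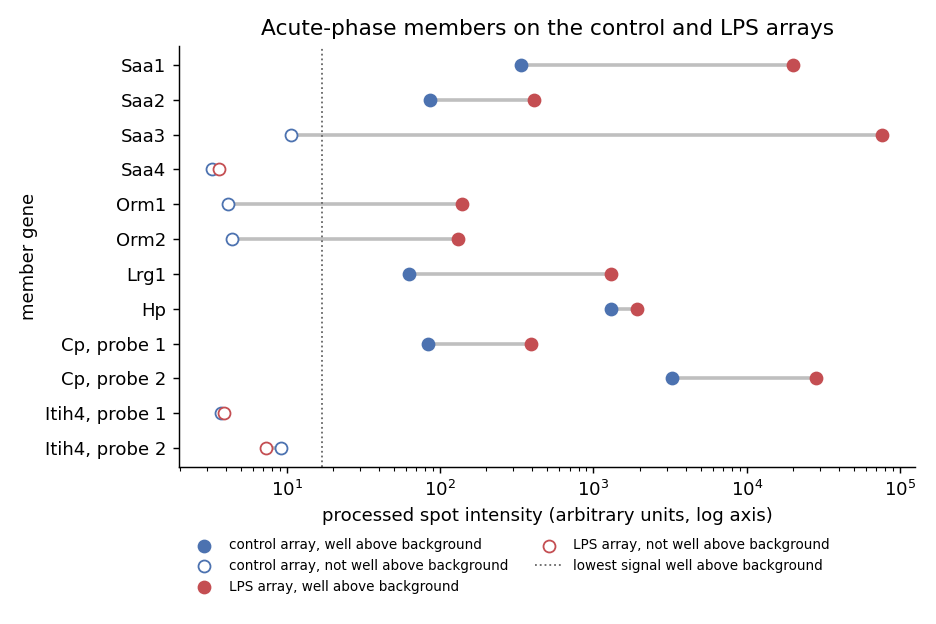
Processed spot intensity (log axis) of the 12 probes of the 10 genes on the control array (blue) and the LPS array (red), with 1 spot per probe and array. Filled points were well above background, open points were not, and the dotted line is the lowest signal well above background (16.9, the higher of the values on both arrays). Saa3, Orm1 and Orm2 cross that line, while Saa4 and Itih4 stay below it on both arrays.

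The Saa genes were each measured by 1 probe, and the probes are shown because these genes are so alike that signal of one can reach the probe of another. In mm9 they lie at chr7:53996070-53996129 for Saa1, chr7:54009622-54009681 for Saa2, chr7:53970389-53970448 for Saa3 and chr7:53983662-53983721 for Saa4. The Saa1 and Saa3 probes are printed whole, and the first 30 of 60 bases are printed for Saa2 and Saa4. Capitals mark runs of at least 6 bases that occur on the same strand in another Saa probe.
Saa1 probe: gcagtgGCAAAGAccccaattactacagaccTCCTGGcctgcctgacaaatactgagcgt
Saa2 probe: ttactcgagcagtagtaactgcttgaggag
Saa3 probe: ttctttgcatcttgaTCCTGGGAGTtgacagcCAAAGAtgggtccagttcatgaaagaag
Saa4 probe: cGGGAGTaaatgaattggttccctcataaa

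The shared runs were short, and in each of the Saa1 and Saa3 probes a pair of them, shared with different probes, overlap. Over the 12 comparisons of Saa probes on the same and the opposite strand, the longest shared run was 7 bases, and at most 23 bases matched at any ungapped shift. The 4 probes were thus built on different stretches of sequence. Of 55681 probes on the array, 0 others shared a run of 20 bases with any of the 12 member probes. This compares probes with probes. The transcripts themselves were not used here, so how far Saa2 RNA binds the Saa1 probe, or the reverse, was not tested. The names of the pair have also been used the other way round: RefSeq lists Saa2 as a synonym of Saa1 and Saa1 as one of Saa2. The accessions on the array gave the same symbols as the current RefSeq table.

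Saa3 showed the widest gap between the arrays. Its intensity was 10.6 on the control array, not well above background, and 76052 on the LPS array. Against the lowest signal well above background on the control array, Saa3 was at least 4925-fold higher, a log2 bound of 12.27, which was the highest of the 647 bounds on the LPS side. With normexp background correction, which adds an offset and so compresses dim signals, the log2 bound was 9.81. The spot had no saturated pixel on either array.

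Saa1 went from an intensity of 339 in control cells to 19989 after LPS. The log2 difference was 5.93 ± 0.04, or 60.9-fold, and Saa1 ranked 6 of the 20380 measured genes, from the largest increase down. The error is the SD of the log2 difference over repeated spots of one probe, as the median of the 25 replicated probes nearest in brightness, and it covers the slide and not the cultures. By the size of the difference the nearest named genes were Sprr2d at 6.10, Slpi at 5.61 and Sprr2h at 5.48.

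Saa2 was higher by less on its own probe. Its intensity was 85.3 in control cells and 407 after LPS, a log2 difference of 2.30 ± 0.10, or 4.92-fold, and 1.69 with normexp. The Saa1 and Saa2 differences lay far apart relative to the spot error. That error comes from repeats of the same probe and does not cover how different probes respond to their RNA. Saa2 ranked 58 of 20380.

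Saa4 gave no value. Its intensities, 3.26 in control cells and 3.61 after LPS, lay under the background limit on both arrays. Thus 3 of the 4 Saa genes were above background on the LPS array, and Saa1 and Saa2 were the ones also seen in control cells.

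**Figure D2:**
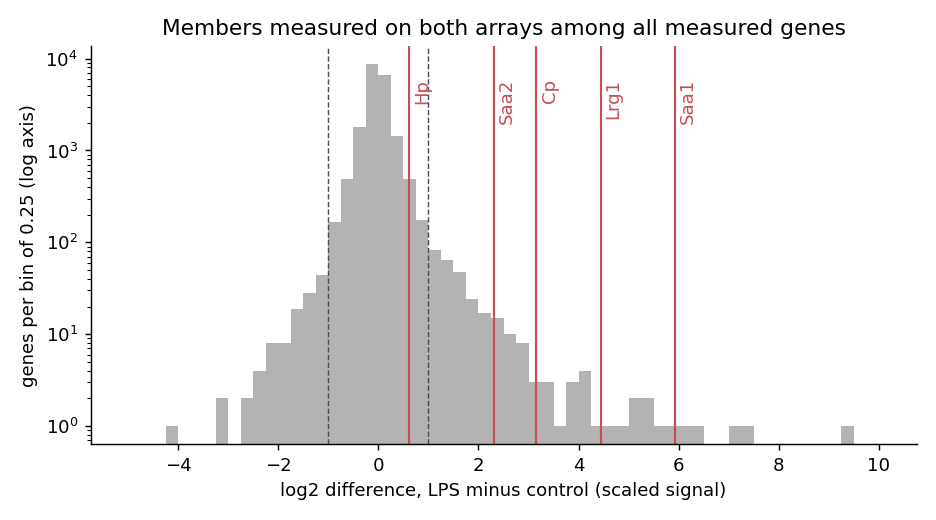
Distribution of the log2 difference, LPS minus control, over all 20380 genes well above background on both arrays (grey, bins of 0.25, log axis), with red lines at the 5 acute-phase genes measured on both arrays. Dashed lines mark 2-fold in each direction; Saa2, Cp, Lrg1 and Saa1 lie beyond the upper one and Hp, at 0.62, inside it.

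Orosomucoid, or alpha-1-acid glycoprotein, is a lipocalin that carries lipophilic and basic compounds in plasma. The Orm1 probe has its ends 608 bases apart in mm9, at chr4:63006483-63007090, so its 60 bases are not contiguous in the genome, and the Orm2 probe lies at chr4:63024979-63025038. Both are printed, with capitals for runs of at least 6 bases shared on the same strand with another Orm probe, that of Orm3 included.
Orm1 probe: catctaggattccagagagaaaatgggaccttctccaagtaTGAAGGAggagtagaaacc
Orm2 probe: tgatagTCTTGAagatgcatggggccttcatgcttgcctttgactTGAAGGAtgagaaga

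The Orm1 and Orm2 probes shared a run of 7 bases at most. Orm1 had an intensity of 4.10 in control cells and 138 after LPS, and Orm2 had 4.38 and 131. Both were below the background limit in control cells and well above it after LPS, at least 8.93-fold and 8.51-fold higher, and they ranked 12 and 13 among the 647 bounds. The log2 bounds of 3.16 and 3.09 were 1.36 and 1.38 with normexp. Orm3, the other orosomucoid gene of the mouse, was not well above background on either array, at 3.57 and 6.90. The Orm genes are near copies of each other, and RNA of one on the probe of another was not tested.

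Lrg1 encodes leucine-rich alpha-2-glycoprotein, a secreted protein that modulates TGF-beta signalling through endoglin. Its probe lies at chr17:56259257-56259316 in mm9. The intensity was 62.1 in control cells and 1308 after LPS, a log2 difference of 4.44 ± 0.09, or 21.7-fold. Lrg1 ranked 14 of 20380, and its difference was 3.45 with normexp.

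Cp encodes ceruloplasmin, the copper-carrying ferroxidase of plasma, and was read by 2 probes. The probe at chr3:19889071-19889130 had an intensity of 3265 in control cells and 28264 after LPS, a log2 difference of 3.16 ± 0.03, or 8.93-fold. The probe at chr3:19907511-19907570, assigned in the files to a different RefSeq transcript, had 82.8 and 389, a log2 difference of 2.28 ± 0.10, or 4.84-fold, and 1.56 with normexp. Both probes were higher on the LPS array, and they differed from each other by more than the spot error, which does not cover differences between probes. By its brighter probe Cp ranked 26 of 20380.

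Hp encodes haptoglobin, which binds free haemoglobin. Its probe lies at chr8:112099045-112099104. The intensity was 1295 in control cells and 1931 after LPS, a log2 difference of 0.62 ± 0.05, or 1.54-fold. Hp was thus under 2-fold and just past 1.5-fold, a size that 3.59% of measured genes reached upward, and it ranked 668 of 20380.

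Itih4 encodes a heavy chain of the inter-alpha-trypsin inhibitor family. Neither of its 2 probes, at chr14:31711222-31711281 and chr14:31714970-31715029, was well above background on either array. The first read 3.73 and 3.91 on the control and LPS arrays, and the second 9.18 and 7.33.

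The Saa genes sit side by side on chromosome 7 and the Orm genes on chromosome 4, so the neighbours were read as well, by position and after the members' values had been seen. The 4 Saa probes span 39.3 kb. Saal1, on one side of them, stood at a log2 difference of -0.03, and Hps5, on the other, at 0.05 on its measured probe. Within 100 kb of the Saa probes, the 6 measured probes of other genes lay between -0.66 for Tph1 and 0.51 for Ldha. Around the Orm probes, the 5 measured probes of other genes lay between -0.35 and 0.13. The 10 measured neighbour probes of Lrg1 lay between -0.10 and 0.46, and the 6 around Cp between -0.12 and 0.38. The 7 around Hp lay between -0.09 and 0.50, where Hp itself was at 0.62. The 6 around Itih4 lay between -0.29 and 0.08. None of these neighbours reached 2-fold.

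**Figure D3:**
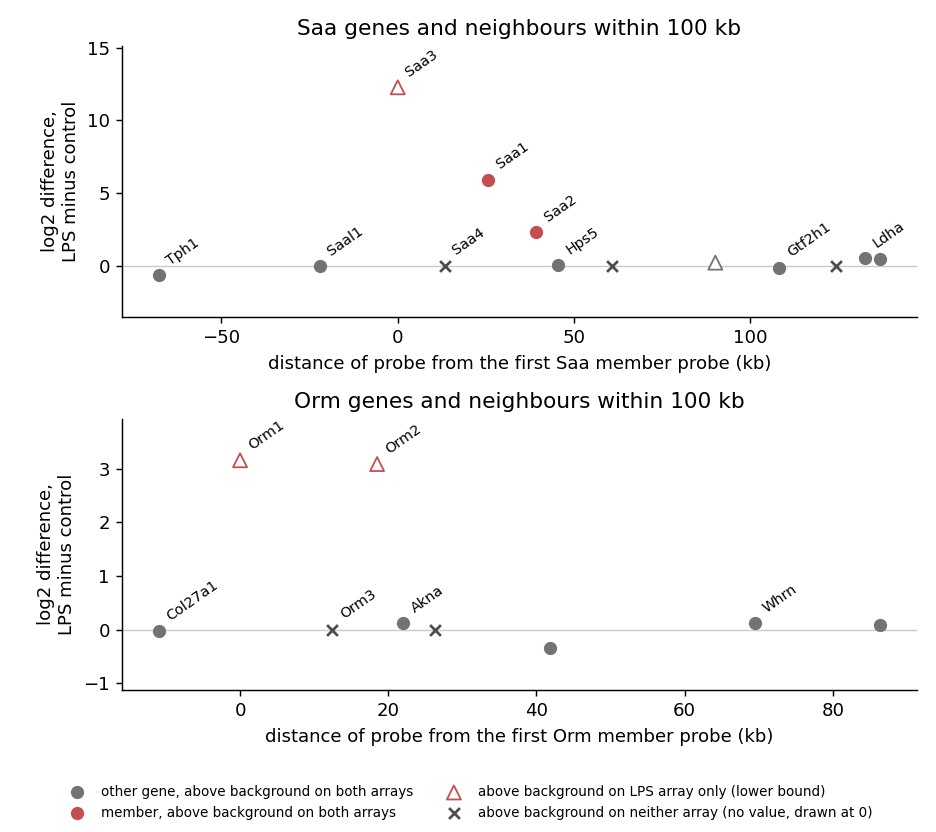
Log2 difference, LPS minus control, of each probe within 100 kb of the Saa probes (top) and the Orm probes (bottom), against its distance in kb from the first member probe. Red marks the members, triangles are lower bounds for genes that passed the background limit after LPS alone, and crosses are probes above background on neither array; the other measured genes lie between -0.66 and 0.51 around the Saa probes.

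The promoters of Saa1, Saa2 and Saa3 are given because these 3 genes had higher signal on the LPS array by different amounts. RefSeq promoters (GRCm38.p6) were found for 8 of the 10 genes, all but Orm1 and Hp. The 250 bases before the start are printed 5′ to 3′ on the gene's strand, from chr7:46742981-46743230 (minus strand), chr7:46751583-46751832 (plus strand) and chr7:46715677-46715926 (minus strand). Capitals mark matches, on either strand, to C/EBP (TTNNGNAAT), NF-kB (GGNNTTTCC), STAT (TTCNNNGAA) or TATA box (letters TATAAA) motifs.
Saa1 promoter: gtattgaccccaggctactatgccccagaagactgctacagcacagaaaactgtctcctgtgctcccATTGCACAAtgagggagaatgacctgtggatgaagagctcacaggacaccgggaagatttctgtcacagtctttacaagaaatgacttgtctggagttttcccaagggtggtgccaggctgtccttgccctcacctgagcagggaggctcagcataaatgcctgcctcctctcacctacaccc
Saa2 promoter: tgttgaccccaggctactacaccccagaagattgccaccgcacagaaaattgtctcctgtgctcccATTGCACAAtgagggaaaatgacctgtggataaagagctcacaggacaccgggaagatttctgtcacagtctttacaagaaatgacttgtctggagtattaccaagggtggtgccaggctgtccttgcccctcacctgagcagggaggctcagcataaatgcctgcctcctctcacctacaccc
Saa3 promoter: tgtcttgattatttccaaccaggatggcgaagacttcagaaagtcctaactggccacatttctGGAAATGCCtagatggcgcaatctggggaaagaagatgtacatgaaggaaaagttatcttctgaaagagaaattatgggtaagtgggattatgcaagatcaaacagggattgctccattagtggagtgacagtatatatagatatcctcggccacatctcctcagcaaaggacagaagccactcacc

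The Saa1 and Saa2 windows were identical at 95.6% of 249 aligned bases. Each held 1 C/EBP match, 183 and 184 bases before the start, and the same 9 letters in both, ATTGCACAA on the printed strand. Saa3 held no C/EBP match and 1 NF-kB match, GGAAATGCC, 187 bases before the start. The NF-kB letters allow no added base, and the Saa1 window holds ggagttttcc, which they miss by 1 added base. The Saa2 window has ggagtattac at that place. The Saa3 window holds tggcgcaat and ttatgcaag, which each miss the C/EBP letters by 1 changed base. The contrasts in NF-kB and in C/EBP letters between Saa1 and Saa3 thus depend on the letters chosen. Of 32851 promoter windows of the same length, 10.2% held the C/EBP letters, 4.93% the NF-kB letters, 7.02% the STAT letters and 12.4% the TATA letters. Among the other members, Orm2 held 1 C/EBP and 1 TATA match, the Cp window nearer the gene held 1 NF-kB and overlapping TATA matches, Itih4 held 1 STAT match, and the Saa4 and Lrg1 windows held none. A longer NF-kB form of 10 letters was tried first and was found in 0 of the 9 member windows. That form was held by 1.41% of the 32851 windows, so a count of 0 in so few windows says little about the members. These matches describe letters in a window and not sites of binding.

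The members were then set beside other genes of the acute phase, by lists. Counts of list genes above background on neither array stand beside 12732 of 34761 such genes on the whole array. Of 30 other positive acute-phase reactants, 29 had a probe and 13 were measured on both arrays, and the median of these 13 was 1.17. At 2-fold, 8 of the 13 were higher, 0 were lower and 5 were between. With normexp or quantile normalization 7 were higher, as Il1rn or Cd14 was then under 2-fold, and with the looser background flag or no filter 9 were, Steap4 added. Lcn2, the iron-sequestering lipocalin, was highest at 9.26 ± 0.04 (8.58 with normexp). The complement gene C3 stood at 6.49 ± 0.04 on its brighter probe and at 4.85 on its other one. These differ by more than the spot error, which does not cover differences between probes. The complement gene Cfb stood at 3.48 ± 0.06, and the lipopolysaccharide-binding protein gene Lbp at 1.31 ± 0.04. The metallothionein gene Mt2 stood at 1.32 ± 0.03, Il1rn at 1.17 ± 0.22 (0.47 with normexp) and Cd14 at 1.02 ± 0.04. Mt1, also a metallothionein gene, was among the 5 between, at 0.59 ± 0.03 on its brighter probe, while its other probe gave 1.05. It was named after its values were seen. The ferrireductase gene Steap4 passed the background limit on the LPS array alone and had a log2 bound of 2.32, and of 0.87 with normexp. Fgl1 was lowest at -0.54 ± 0.08. Another 15, among them the classical liver genes Crp and Apcs, the fibrinogen genes Fga, Fgb and Fgg, and Hamp, were above background on neither array. These last genes, like Alb and its companions below, were named after their values were seen.

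Negative acute-phase and other hepatocyte-secreted genes showed no 2-fold difference. Of 15 on the list, 5 were measured, with a median of -0.07, from -0.31 ± 0.04 for Apob to 0.40 ± 0.03 for the retinol carrier gene Rbp4. Another 9, among them Alb, Ttr, Apoa1 and Ahsg, were above background on neither array. Trf passed the background limit in control cells alone, at intensities of 26.5 and 13.1 on the control and LPS arrays. Its log2 bound was -0.60, and -0.12 with normexp. Trf too was named after its values were seen.

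Of 34 cytokine, receptor and transcription factor genes that control the response, 28 were measured, with 7 at least 2-fold higher, 0 lower, 21 neither and a median of 0.37. The cytokine genes Tnf and Il6 stood at 4.04 ± 0.09 and 3.07 ± 0.09 (3.11 and 2.35 with normexp). Cebpd, a C/EBP factor gene, stood at 2.42 ± 0.03 and Osmr, which encodes the oncostatin M receptor, at 2.31 ± 0.04. Il22ra1 was at 1.45 ± 0.15 (0.74 with normexp) and Nfkbiz at 1.42 ± 0.06. Relb was at 1.27 ± 0.05, and its other 2 measured probes gave 1.25 and -0.04. Gadd45a was lowest at -0.74 ± 0.04. Cebpb and Stat3, named after their values were seen, were under 2-fold at 0.90 ± 0.03 and 0.09 ± 0.03. Another 5 (Il1a, Il1b, Il1r1, Osm and Onecut1) were above background on neither array. Thus neither interleukin 1 gene nor the gene of the oncostatin M ligand gave a value. Cebpa passed the background limit in control cells alone, with a log2 bound of -0.16. These genes too were named after their values were seen.

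Of 23 genes for receptors, partners and clearance of the member proteins, 13 were measured and 0 reached 2-fold either way, with a median of 0.11, from -0.39 ± 0.03 for Tgfbr1 to 0.50 ± 0.04 for the haem oxygenase gene Hmox1. Tlr2 passed the background limit on the LPS array alone, with a log2 bound of 1.17, and of 0.36 with normexp. Another 4 (Cd36, P2rx7, Asgr1 and Heph) passed it in control cells alone, with log2 bounds from -0.89 for Cd36, whose intensities were 32.3 and 3.63, to -0.18 for Heph. Tlr2 counted as 1 gene 2-fold higher under the looser flag or without a filter, and Cd36 as 1 gene 2-fold lower without a filter. The serum amyloid A receptor gene Fpr2 was above background on neither array. It and these 4 genes were named after their values were seen. Of the 11 genes of the inter-alpha-trypsin family and its partners only 2 were measured: Ambp, which encodes the bikunin light chain, at 0.97 ± 0.10 and the hyaluronan receptor gene Cd44 at -0.06 ± 0.03. With cyclic loess Ambp was just past 2-fold, at 1.02, and with normexp it was at 0.74. The heavy chain genes Itih1, Itih2, Itih3 and Itih5 were, like Itih4, above background on neither array.

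**Figure D4:**
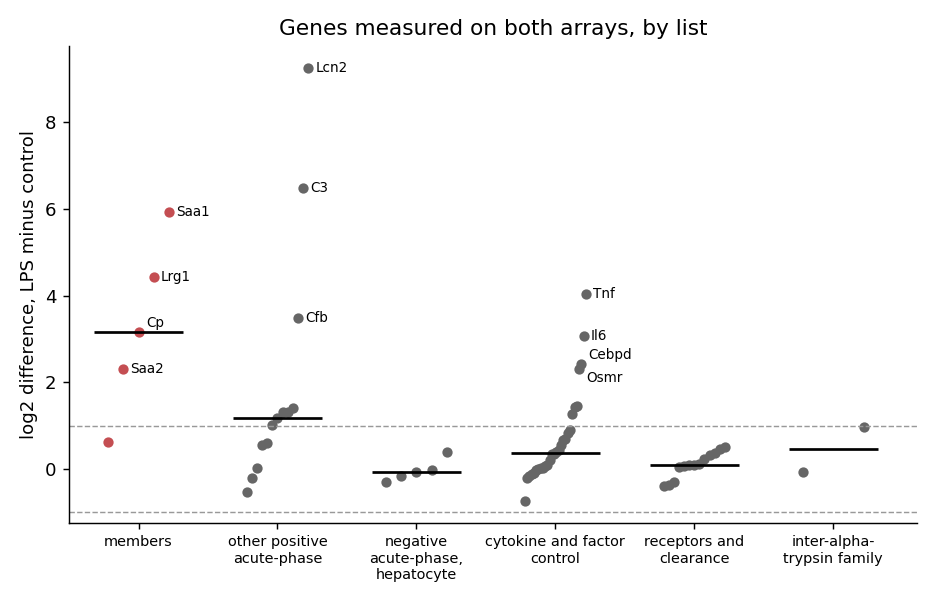
Log2 difference, LPS minus control, of every gene measured on both arrays in the 5 acute-phase members (red) and 5 related lists (grey), with black lines at the medians and dashed lines at 2-fold. The members' median of 3.16 lies above those of the other positive acute-phase genes (1.17) and of the genes that regulate the response (0.37), and labels name genes at a log2 difference of 2 or more.

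Cell type markers were read on the same arrays. Over all 34761 genes, 12732 were above background on neither array, so such a count in a short list does not by itself show that a cell type was absent. Of 14 colonic epithelial markers 11 were measured. Their median was -0.25, with only Lgals4 past 2-fold, at -1.45 ± 0.03, and Cdx2, Tff3 and Muc2 were above background on neither array. Of 12 hepatocyte markers 7 were above background on neither array, Alb, Ttr and Apoa1 included. The brightest genes of that list were Hnf4a, at intensities of 9442 and 7889 on the control and LPS arrays, Apob (3919 and 3069) and Apoa2 (2379 and 2198). The summed signal of the list, in units of each array's 75th percentile, was 24.4 in control cells and 21.1 after LPS. Of 12 macrophage markers 4 were measured and 5, Lyz2 and Tyrobp included, were above background on neither array. The brightest genes there were Itgam, at intensities of 7516 and 7780 on the control and LPS arrays, Csf1r (1575 and 1587) and Cd68 (1064 and 1273). The macrophage list summed to 15.8 and 17.3. Aif1 of that list was higher by 2.18 ± 0.14 (1.32 with normexp), while Ptprc passed the background limit in control cells alone, with a log2 bound of -1.60, and of -0.58 with normexp. Adgre1 and Mrc1 passed it after LPS alone, with log2 bounds of 0.97 and 0.87. Of 12 neutrophil markers 5 were measured, none past 2-fold, and 4 were above background on neither array. S100a8, Ltf and Ngp passed the background limit after LPS alone, with log2 bounds of 4.41, 3.03 and 0.62 (2.48, 1.41 and 0.16 with normexp). The list summed to 136 and 131, of which Csf3r, Ly6g and Itgam held 98.9% and 98.3%, and the other 9 genes summed to 1.43 in control cells and 2.25 after LPS. Of 12 adipocyte and fibroblast markers 3 were measured, at 0.33 to 0.96, 8 were above background on neither array, and Pdgfra passed the limit in control cells alone with a log2 bound of -0.97. That list summed to 2.42 and 4.42. In the hepatocyte, macrophage and adipocyte and fibroblast lists too, the 3 brightest genes held 95.2% to 98.9% of the sum on each array, so these sums say little about the dimmer markers. Adgre1, Mrc1, Ngp, Pdgfra and the markers above background on neither array were named after their values were seen. So were the brightest genes of the hepatocyte, macrophage and neutrophil lists. The labels name only cells of the CMT93 line, and a part of other cell types in the members' differences was not tested.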

How the data were processed

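Total RNA of control and LPS-treated CMT93 cells was hybridised to 1 one-colour (Cy3) Agilent array each, grouped by the sample titles. The deposited files hold the intensity of each spot from Feature Extraction 10.10.1.1, background-subtracted and detrended within the array, per the file headers, which name the build mm9. Both samples carry one treatment text, read here as that of the LPS sample.

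Control spots and 223 flagged spots of 59305 were left out. Intensity was log2-transformed and each array's 75th percentile (651 and 631) was subtracted. Spots of a probe were averaged and the brightest probe stood for a gene. On the control array 55.8% of spots were well above background and on the LPS array 54.7%, and 0 spots were saturated. A gene not well above background on 1 array has a bound: its bright signal over the dim array's lowest signal well above background, or over its own dim signal where that is higher. Symbols were updated through accessions, which matched 28020 of 55681 probes (50.3%). The error used 233 probes printed 10 times, with a median SD of 0.05. Probe sequences were set against each other only; no protein or transcript sequence was used.

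The alternatives were normexp (offset 50), subtracted signal floored at 1, quantile, cyclic loess (span 0.7), median centring, the percentile of detected probes, the median over probes, a looser background flag, no background filter, and flagged spots kept. Tools were R 4.3.3, limma 3.58.1, Python 3.11.15, numpy 2.4.6, pandas 2.3.3 and matplotlib 3.10.9. Members, lists and motifs were chosen with earlier results of these data known. Named list genes are those past 2-fold, the highest and lowest, and those with a bound past 2-fold; the 3 genes nearest to Saa1 by size are also named. One gene of the list of other positive acute-phase reactants is counted there and not reported here by name.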

Additional observations from a re-analysis of the deposited data

How the results depend on the processing

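Under each of the 10 alternatives the same 7 genes (Saa1, Saa2, Saa3, Orm1, Orm2, Lrg1 and Cp) were at least 2-fold higher by their difference or bound, and Hp stayed past 1.5-fold and under 2-fold, from 0.59 to 0.65. With normexp the log2 values were 5.69 for Saa1, 1.69 for Saa2, 3.45 for Lrg1, and, as bounds, 9.81 for Saa3, 1.36 for Orm1 and 1.38 for Orm2. With floored signal Lrg1 was at 4.54 and the bounds were 13.04, 3.97 and 4.01 for Saa3, Orm1 and Orm2. The looser flag and no background filter both gave 12.86, 5.12 and 4.95 for these 3 genes, since their control signal then counts as it stands, and without the filter 7 members had a measured 2-fold difference. Cp was at 3.13 with quantile normalization and 2.72 as the median of its probes. The causes of the other changes were not tested. Of the other positive acute-phase genes 8 were 2-fold higher, but 7 with normexp or quantile normalization and 9 with the looser flag or without a filter. All genes at least 2-fold higher numbered 297, but 171 with normexp, 748 with the looser flag and 1362 without a filter. Dim signal limits Saa4, Itih4 and the control values of Saa3, Orm1 and Orm2. No paired analysis was possible because each group had 1 array.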
